A study of Caenorhabditis elegans with 6 samples.

Results

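Microtubules are the tracks on which neurons move vesicles and organelles, and the genes described here encode the tubulins that build those tracks, the kinesins and dynein that walk on them, the dynactin complex that works with dynein, and proteins that bind the lattice or its growing ends. Kinesins mostly walk towards microtubule plus ends and cytoplasmic dynein towards minus ends. In PVD, the anterior primary dendrite holds mostly minus-end-out microtubules and the axon plus-end-out ones, and dynein is known to carry cargo into the dendritic tree. Several kinesins and tubulins act chiefly in spindles of dividing cells or in sensory cilia instead.

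The genes were taken by name: every gene called tba-, tbb-, klp- or dnc- with a number, plus unc-104, unc-116, vab-8, bmk-1, zen-4, dhc-1, dli-1, dlc-1, klc-1, klc-2, unc-16, jip-1, ptl-1, ebp-1 and ebp-2, without klp-11 and klp-20. The names fit 45 genes of the RefSeq gene table, and 43 of them had at least 1 probe set of their own, out of 17118 genes on the array. ebp-1 had only a probe set shared with ebp-3, and the probe set of klp-12 was listed under 2 gene IDs, so neither was counted. Where a gene had several probe sets, the one with the highest mean over all 6 arrays stood for it. On 26 of the 43 that probe set had a name ending in _s_at or _x_at, which marks probes that can match more than 1 transcript, so values of near-identical tubulin and klp genes are uncertain for the single gene.

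PVD is a pair of highly branched nociceptive neurons of the body wall, and OLL a pair of sensory neurons of the head of Caenorhabditis elegans. Worms were raised at 25 °C on E. coli Na22 and taken as L3/L4 larvae. The PVD and OLL group held poly(A) RNA pulled down with a 3X FLAG-tagged PAB-1, a poly(A) binding protein, made from the ser-2prom3B promoter. The whole animal group held total RNA of larvae of the same stage, lysed whole, with no pulldown given in the labels. No mutant allele or drug is named for either group, and both were amplified with NuGEN WT-Pico and hybridised to 3 Affymetrix arrays each. Type of RNA, pulldown and tissue changed together and cannot be told apart. The labels call only the PVD and OLL samples biological replicates, so p-values reflect how far these arrays vary, which may in part be technical. In bulk RNA, fewer cells of a type and less RNA per cell also cannot be told apart.

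Of 11 markers of PVD and OLL, 8 were higher, while ser-2, F49H12.4 and eat-4 were not called and had mean signals of 2.91, 2.75 and 2.78 (log2) in the PVD and OLL group. The mean log2 signal of 10 pan-neuronal genes was 7.56, 7.48 and 6.70 on PVD and OLL arrays 1, 2 and 3 and 6.13, 5.97 and 5.68 on the whole animal arrays. Other tissues were present in the pulldown as well, with 8 body wall muscle genes at a mean of 9.85 to 10.15 there and 9.39 to 10.08 in the whole animal, with 1 of the 8 called higher and 1 lower. Of 7 hypodermal genes 3 were called higher and 1 lower, of 7 glial genes 3 higher and 0 lower, and of 7 intestinal genes 1 higher and 2 lower. The part of these tissues in the differences below was not tested. The 2 arrays numbered 3 stood apart from the other 2 of their groups: across probe sets they correlated with these at 0.954 and 0.961 in PVD and OLL and at 0.938 and 0.940 in the whole animal, against 0.988 and 0.973 between replicates 1 and 2. The level exceeded by 5% of control probe sets without a target, used here as background, was 2.28 to 2.44 on the PVD and OLL arrays and 2.95 to 3.43 on the whole animal arrays.

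Of the 43 genes, 6 were higher in the PVD and OLL samples and 0 lower by limma, with p-values adjusted over every tested probe set by Benjamini and Hochberg (under 0.05). The 6 were klp-4, jip-1, klp-3, ebp-2, klc-2 and unc-16, 14% of the genes. Over all probe sets 9.31% were called higher and 4.28% lower. Over 1 probe set for each of the 17118 genes, 8.10% were called higher and 4.66% lower. Without adjustment, p was under 0.05 for 16 higher genes and for 2 lower ones (tbb-4 and klc-1), or 37.2% and 4.65%, against 16.8% and 14.7% of all genes. The 3 PVD and OLL arrays lay above all 3 whole animal arrays for 16 of the 43 genes and below them for 5, against 18.4% and 21.9% of all genes. The median log2 difference was 0.32 (range -0.71 to 2.03), beside -0.07 over all genes. The count of 6 fell to 1 without PVD and OLL replicate 2 and to 3 without PVD and OLL replicate 1, and rose to 12 when both arrays numbered 3 were dropped. The share of all genes called higher moved the same way under these settings, to 2.16%, 3.19% and 13.5%.

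**Figure D1:**
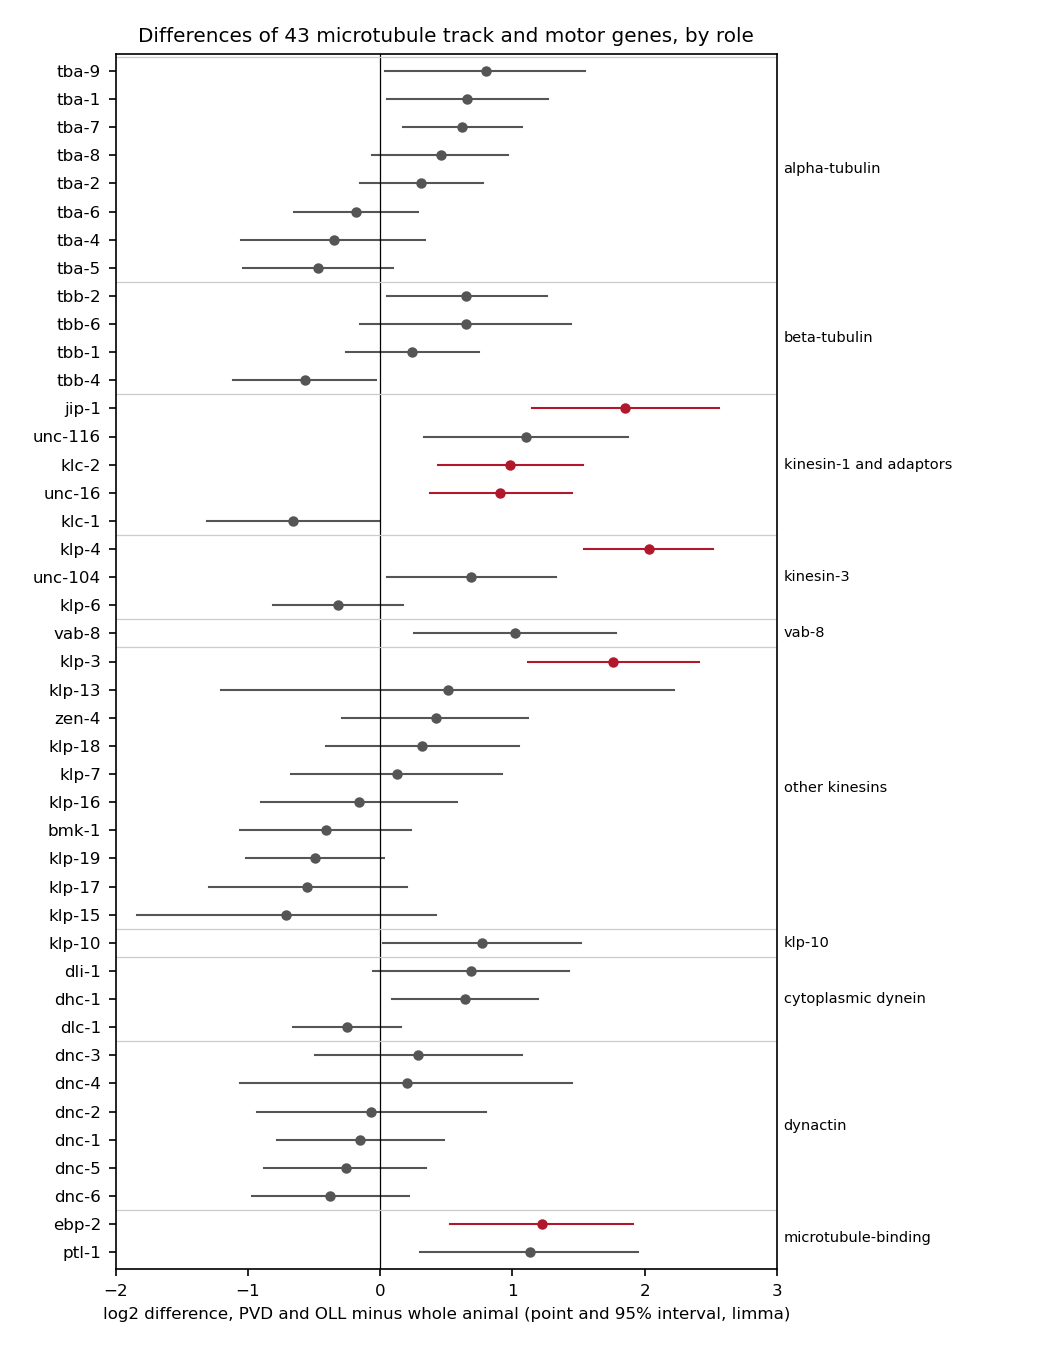
Log2 difference between PVD and OLL and whole animal for each of the 43 genes (x axis, log2 units), grouped by role on the y axis, as limma's estimate with its 95% interval from 3 arrays per group. Red marks the 6 genes called higher, from unc-16 at 0.91 to klp-4 at 2.03, and every gene in grey, including all 12 tubulins, was not called.

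Of the 9 transport kinesin, light chain, adaptor and vab-8 genes, 4 were called higher and 0 lower (44.4%, beside 8.10% of all genes), and 1 of these calls was left without PVD and OLL replicate 2. klp-4 encodes a kinesin-3 that carries glutamate receptors along the ventral nerve cord. Its signal was 6.52, 6.40 and 6.13 in PVD and OLL and 4.10, 4.33 and 4.53 in the whole animal. All 3 PVD and OLL arrays stood far above the reference, and the arrays of each group lay close together. The difference was 2.03 ± 0.21 (log2, SE, n = 3 arrays per group, limma adjusted p = 0.00439), a 4.08-fold higher signal with a 95% interval of 1.54 to 2.52 on the log2 scale. The other probe set of klp-4 was higher too, by 1.31 ± 0.24 (limma adjusted p = 0.0158). klp-4 was the one gene of the 43 that was called in all 6 runs that each dropped 1 array (limma adjusted p from 0.00851 to 0.0320).

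The other kinesin-3 genes were not called with the probe sets used. unc-104, the motor for synaptic vesicle precursors, read 4.78, 4.77 and 4.10 in PVD and OLL and 4.08, 4.03 and 3.48 in the whole animal. Its lowest PVD and OLL array only just exceeded the highest whole animal array, and both arrays numbered 3 were the low ones of their group. The difference was 0.69 ± 0.28 (limma adjusted p = 0.134), while its dimmer probe set, below background on all 3 whole animal arrays, was at least 1.58-fold higher and called (measured means 3.82 and 2.90, limma adjusted p = 0.0489). klp-6, a kinesin of ciliated neurons that are prominent in males, was below background on all 6 arrays. It read 2.09, 1.81 and 1.63 in PVD and OLL and 1.97, 2.19 and 2.33 in the whole animal, so no fold is given.

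**Figure D2:**
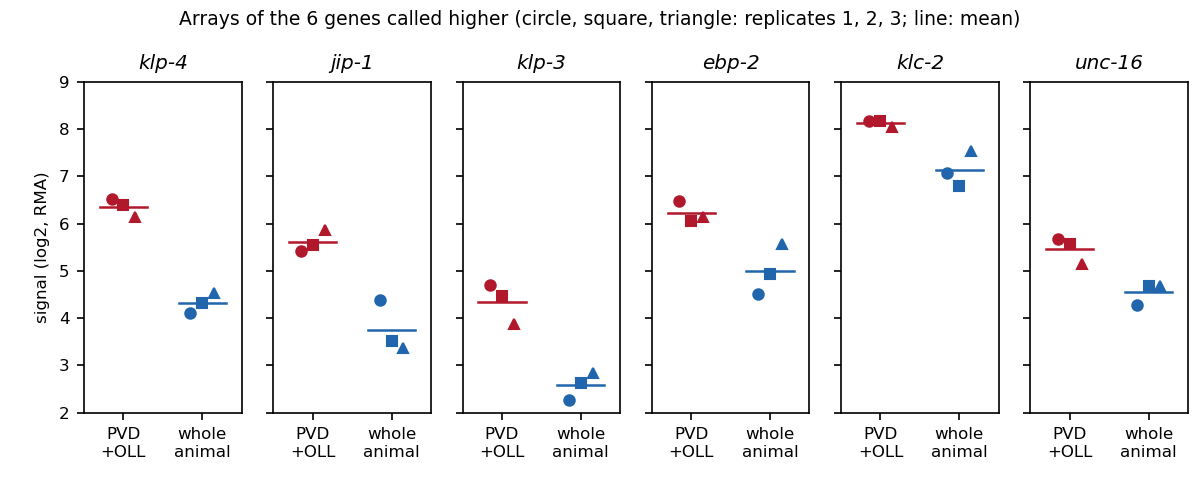
Signal on each array (y axis, log2 RMA units) of the 6 genes called higher, in PVD and OLL (red) and whole animal (blue), with circle, square and triangle for replicates 1, 2 and 3 and a line at the mean of 3 arrays. In every panel the 3 PVD and OLL points lie above the 3 whole animal points, with the widest gap for klp-4 and narrow ones for ebp-2, klc-2 and unc-16.

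Kinesin-1 is built from the heavy chain UNC-116 and the light chains KLC-1 and KLC-2, and the scaffold proteins JIP-1 and UNC-16 (the latter of the JIP3 class) link it to cargo and kinases. Of these 5 genes 3 were higher and 0 lower (60% higher, beside 8.10% of all genes), with a median log2 difference of 0.98. The count was 0 without PVD and OLL replicate 2, and 1 without PVD and OLL replicate 1, without whole animal replicate 1 or 2, under quantile, loess or median scaling, with the mean of all probe sets and with the replicate block. It was 2 without PVD and OLL replicate 3. The light chain gene klc-2 read 8.16, 8.17 and 8.03 in PVD and OLL and 7.06, 6.80 and 7.54 in the whole animal. The PVD and OLL arrays were nearly equal, and the spread lay in the reference, whose replicate 3 was the highest. klc-2 was higher by 0.98 ± 0.23 (limma adjusted p = 0.0341), a 1.98-fold difference. Its other probe set, below background on all 3 whole animal arrays, was at least 1.49-fold higher (measured means 3.73 and 2.65, limma adjusted p = 0.0186). The call was lost in 5 of 6 runs that each dropped 1 array (limma adjusted p up to 0.122) and under quantile normalization, cyclic loess and centring on array medians, where the difference stayed between 0.78 and 0.85.

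The scaffold gene unc-16 read 5.67, 5.56 and 5.15 in PVD and OLL and 4.27, 4.68 and 4.69 in the whole animal. No array of one group overlapped the other, with PVD and OLL replicate 3 nearest to the reference. It was higher by 0.91 ± 0.23 (limma adjusted p = 0.0397), and the call was lost in 4 of 6 runs that each dropped 1 array (limma adjusted p up to 0.141). Its dimmer probe set differed by 0.22 ± 0.22 (limma adjusted p = 0.503), and the mean of both by 0.57 (limma adjusted p = 0.0922). So the call of unc-16 rested on 1 of its 2 probe sets.

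jip-1 had the second largest difference of the 43 genes and the widest disagreement between probe sets. Its brightest probe set read 5.42, 5.55 and 5.86 in PVD and OLL and 4.39, 3.51 and 3.37 in the whole animal. The PVD and OLL arrays were all above the reference, whose replicate 1 stood about 1 log2 unit above the other two. The difference was 1.85 ± 0.30 (limma adjusted p = 0.0107), 3.62-fold higher. Dropping PVD and OLL replicate 2 ended the call (limma adjusted p = 0.05003). The other 3 probe sets listed for jip-1 differed by -0.25 (below background on all whole animal arrays), -0.34 and -0.61, none of them called (limma adjusted p from 0.0724 to 0.377). Averaged over all 4, jip-1 differed by 0.16 (limma adjusted p = 0.545). Which of the 4 follow the jip-1 transcript was not tested.

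The heavy chain gene unc-116, which is required for the polarity of dendritic microtubules, read 7.85, 8.34 and 8.55 in PVD and OLL and 7.25, 7.65 and 6.52 in the whole animal. The groups did not overlap, but whole animal replicate 3 lay far below the other two. The difference was 1.1 ± 0.33 with a 95% interval of 0.33 to 1.87 (limma adjusted p = 0.0658), and its other probe set differed by 1.17 ± 0.43 (limma adjusted p = 0.112). The light chain gene klc-1 pointed the other way, with 3.46, 3.28 and 2.86 in PVD and OLL and 3.80, 3.46 and 4.30 in the whole animal. Its difference of -0.66 ± 0.28 was not called (limma adjusted p = 0.151), and the highest PVD and OLL array equalled the lowest whole animal array to the second decimal.

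VAB-8 is a kinesin-like protein that directs posterior migrations of cells and growth cones. vab-8 read 5.74, 5.71 and 6.07 in PVD and OLL and 4.96, 5.37 and 4.13 in the whole animal, with replicate 3 the lowest reference array. The difference was 1.02 ± 0.33 (limma adjusted p = 0.0783) and 0.48 ± 0.24 with the other probe set (limma adjusted p = 0.211).

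**Figure D3:**
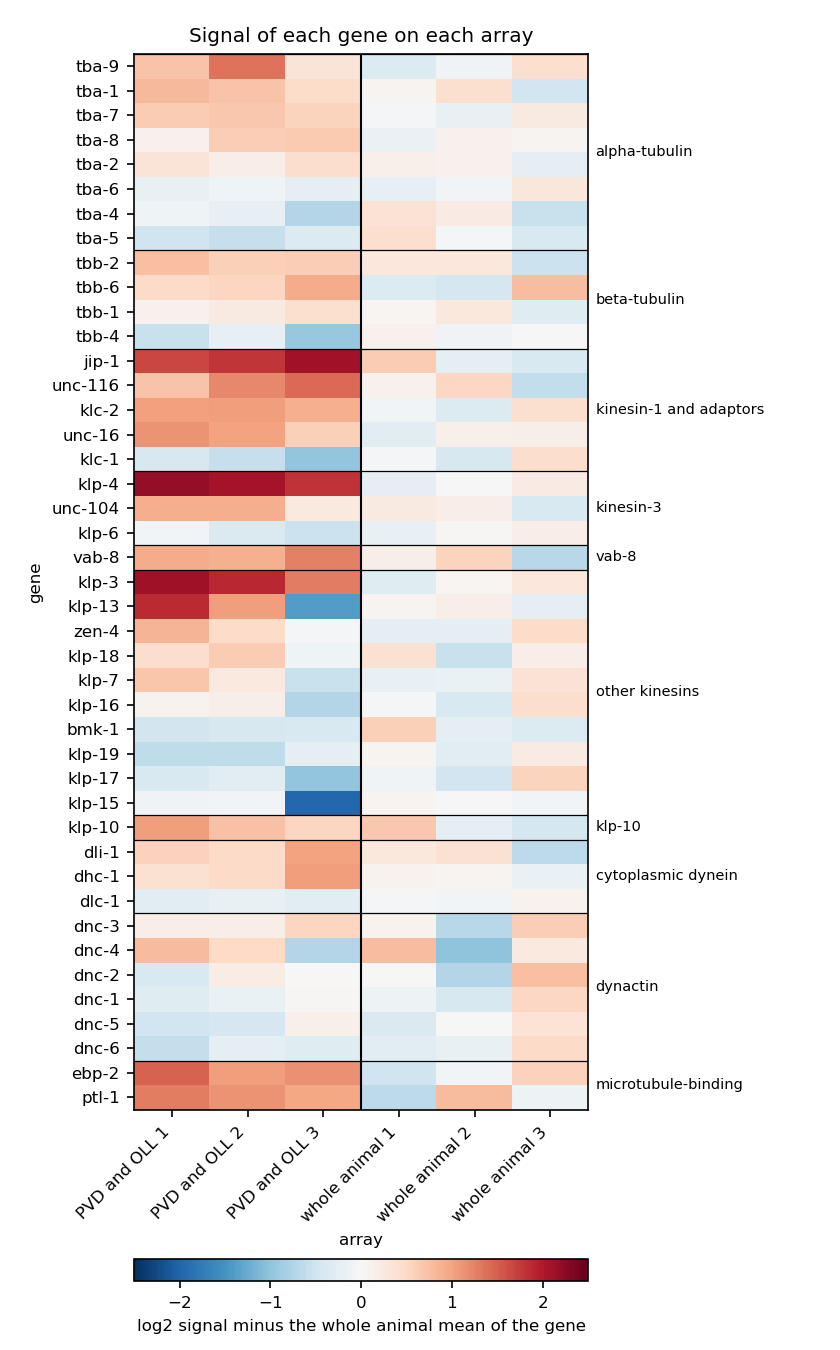
Heat map of the 43 genes (rows, grouped by role) on the 6 arrays (columns), coloured by log2 signal minus the gene's whole animal mean, from blue (lower) to red (higher). jip-1, klp-4 and klp-3 are red on all 3 PVD and OLL arrays, while klp-13 and klp-15 are strongly blue on PVD and OLL replicate 3.

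Of the 2 genes for proteins that bind the lattice or its ends, ebp-2 was higher and ptl-1 was not called. EBP-2 is an EB1 protein that rides on growing plus ends and is widely used to read microtubule polarity in PVD. ebp-2 read 6.48, 6.05 and 6.14 in PVD and OLL and 4.51, 4.93 and 5.57 in the whole animal. All PVD and OLL arrays were higher, and the reference arrays differed among themselves by about 1 log2 unit. The difference was 1.22 ± 0.30 (limma adjusted p = 0.0368), 2.33-fold higher, and the call was lost in 5 of 6 runs that each dropped 1 array (limma adjusted p up to 0.118) and under 3 scalings, with 0.86 after cyclic loess. ptl-1 encodes the worm's tau-like protein, best known from touch receptor neurons. It read 4.06, 3.90 and 3.76 in PVD and OLL and 2.14, 3.57 and 2.65 in the whole animal, where only 1 array was above background. The difference of 1.13 ± 0.35 was not called (limma adjusted p = 0.0746), and was called at 0.0282 without whole animal replicate 2. Its other 3 probe sets were below background on all whole animal arrays, and none was called. Of these, 1 was above background on all 3 PVD and OLL arrays, at least 1.32-fold higher (measured means 3.56 and 2.72, limma adjusted p = 0.126).

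Of the 12 tubulin genes, limma called 0 in either direction. At an unadjusted p under 0.05, 4 were higher (tba-1, tba-7, tba-9 and tbb-2) and 1 lower (tbb-4). Among all genes, 16.8% passed this unadjusted level upwards and 14.7% downwards, while 8.10% were called higher and 4.66% lower. The median log2 difference was 0.38 over the 8 alpha-tubulins and 0.45 over the 4 beta-tubulins. These medians stayed above 0 under the 5 other scalings (0.18 to 1.63 and 0.18 to 1.69), beside -0.27 to 1.17 over all genes. The highest value of each range came from centring on the spiked bioB and bioC transcripts, which moved all genes upwards. The 5 alpha-tubulins with a probe set of neither suffix, however, had a median of -0.18. tba-1, tba-2, tbb-1 and tbb-2 encode the tubulins used throughout the embryo and germ line. tba-1 differed by 0.66 ± 0.26 and tba-2 by 0.31 ± 0.20, and the other probe sets of tba-2 by -0.16 and 0.01.

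Among beta-tubulins, tbb-2 read 9.42, 9.27 and 9.29 in PVD and OLL and 8.94, 8.94 and 8.14 in the whole animal. The PVD and OLL arrays were higher without overlap, and whole animal replicate 3 was the low one. Its difference of 0.65 ± 0.26 had a 95% interval of 0.05 to 1.26 (limma adjusted p = 0.132). tbb-1 differed by 0.24 ± 0.22 and tbb-6 by 0.65 ± 0.34. tbb-6 was called higher without whole animal replicate 3 (1.03, limma adjusted p = 0.0287), the array on which it read 4.66 against 3.55 and 3.48 on the other two.

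tba-7 came closest to a call among the tubulins. It read 7.48, 7.53 and 7.41 in PVD and OLL and 6.79, 6.67 and 7.08 in the whole animal. The groups did not overlap, and the PVD and OLL arrays lay close together. The difference was 0.62 ± 0.19 with a 95% interval of 0.17 to 1.07 (limma adjusted p = 0.0731), and was called without whole animal replicate 3 (0.74, limma adjusted p = 0.0435). tba-4 differed by -0.35 ± 0.30 and tba-8 by 0.46 ± 0.22.

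The tubulins of sensory cilia, tba-5, tba-6, tba-9 and tbb-4, were read near background. tba-9 read 3.11, 3.76 and 2.71 in PVD and OLL, all above background, and 2.06, 2.31 and 2.81 in the whole animal, all below it. The groups overlapped between the lowest PVD and OLL array and the highest reference array, and against the background the signal was at least 1.02-fold higher (limma adjusted p = 0.138). tba-5 read 2.28, 2.19 and 2.43 in PVD and OLL and 3.19, 2.73 and 2.40 in the whole animal, and tba-6 was below background on all 6 arrays. tbb-4 read 2.36, 2.70 and 1.97 in PVD and OLL and 3.01, 2.82 and 2.90 in the whole animal. The PVD and OLL arrays of tbb-4 were lower, but 1 of 6 arrays exceeded background, and no fold is given. Of 10 genes of ciliated neurons, che-11 was called higher and 0 were lower (10% higher, near the 8.10% of all genes). Their mean signal was 3.2 to 3.56 in PVD and OLL and 2.83 to 3.01 in the whole animal, where background was 2.95 to 3.43. Only 4 of the 10 were above background on all 3 arrays of a group, so these means are partly readings near background. che-11 was below background on all whole animal arrays, so its signal was at least 1.64-fold higher.

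The remaining kinesins included the genes of the mitotic and meiotic spindle. Of 10 such genes, klp-3 was higher and 0 were lower. That is 10% called higher, near the 8.10% of all genes. KLP-3 belongs to the minus-end directed kinesin-14 class. klp-3 read 4.71, 4.46 and 3.87 in PVD and OLL and 2.28, 2.63 and 2.84 in the whole animal. Every PVD and OLL array was above background and every whole animal array below it, so the signal was at least 2.28-fold higher, with measured means of 4.35 and 2.58 (limma adjusted p = 0.00953). Dropping PVD and OLL replicate 2 ended the call (limma adjusted p = 0.0503). It held under the 5 other scalings.

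The other 9 kinesins of this class were not called, with differences from -0.71 (klp-15) to 0.51 (klp-13). The microtubule depolymerase gene klp-7, of kinesin-13, differed by 0.13 ± 0.34, and zen-4, the kinesin of the cytokinetic midzone, by 0.42 ± 0.30. klp-18, required for the acentrosomal meiotic spindle, differed by 0.32 ± 0.31 and the chromosome-bound klp-19 by -0.49 ± 0.22. bmk-1, a kinesin-5, differed by -0.41 ± 0.28 and klp-16 by -0.16 ± 0.32. klp-17, above background on only 2 arrays of each group, differed by -0.55 ± 0.32. None of these differences exceeded what limma attributes to the spread between arrays at the adjusted threshold.

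Several of these kinesins were low on PVD and OLL replicate 3 alone. klp-15, a meiotic kinesin nearly identical to klp-16, read 6.27, 6.29 and 4.41 in PVD and OLL and 6.44, 6.35 and 6.30 in the whole animal. Replicates 1 and 2 lay just under the reference and replicate 3 almost 2 log2 units under it, so its difference was -0.71 ± 0.48 with all arrays and -0.08 without that array. klp-13 read 5.42, 4.59 and 2.16 in PVD and OLL and 3.61, 3.72 and 3.32 in the whole animal. It lay above the reference on 2 arrays and below background on the third, with 0.51 ± 0.73 over all arrays (limma adjusted p = 0.655) and a called 1.46 without PVD and OLL replicate 3 (limma adjusted p = 0.0301). The median of the 10 genes relative to the whole animal was 0.27, 0.20 and -0.47 on PVD and OLL arrays 1, 2 and 3.

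Germ cell and division markers were set beside these kinesins. The mean signal of 10 germline genes was 5.87, 5.89 and 5.37 on PVD and OLL arrays 1, 2 and 3 and 6.18 to 6.37 in the whole animal, with pgl-3 and rme-2 called lower and 0 higher. The mean signal of 12 genes of dividing cells was 5.27, 5.08 and 5.20 in PVD and OLL and 5.13, 4.99 and 5.70 in the whole animal, with bub-1 called lower and 0 higher. The part of germ cells or dividing cells in the kinesin values was not tested. klp-10, which shares another probe set with klp-18, read 4.78, 4.45 and 4.27 in PVD and OLL and 4.41, 3.49 and 3.28 in the whole animal. Its groups overlapped through whole animal replicate 1, and the difference of 0.77 ± 0.32 (limma adjusted p = 0.148) was called without that array (limma adjusted p = 0.0473).

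Cytoplasmic dynein and dynactin gave 0 calls among 9 genes by limma, with 1 gene, the heavy chain dhc-1, higher at an unadjusted p under 0.05. Over all genes, 8.10% were called higher and 4.66% lower, and at an unadjusted p under 0.05 16.8% were higher and 14.7% lower. dhc-1 read 6.71, 6.81 and 7.37 in PVD and OLL and 6.42, 6.40 and 6.15 in the whole animal. The groups did not overlap, with replicate 3 the highest in one and the lowest in the other. The difference was 0.64 ± 0.24 with a 95% interval of 0.09 to 1.19 (limma adjusted p = 0.112). The light intermediate chain gene dli-1 read 5.28, 5.18 and 5.70 in PVD and OLL and 4.97, 5.09 and 4.04 in the whole animal. Its difference of 0.69 ± 0.32 (limma adjusted p = 0.178) fell to 0.36 without whole animal replicate 3, the low array. The light chain gene dlc-1, whose LC8-type product also serves other complexes, read 9.53, 9.62 and 9.53 in PVD and OLL and 9.79, 9.75 and 9.90 in the whole animal. All PVD and OLL arrays lay below the reference by a small margin, -0.25 ± 0.18 (limma adjusted p = 0.350).

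The 6 dynactin genes lay between -0.38 and 0.29, with a median of -0.11, and their arrays overlapped between the groups in every case. The median was 0.21 without whole animal replicate 3 and 0.15 when both arrays numbered 3 were dropped, so no direction is given for them. dnc-1, which encodes the large subunit that touches the microtubule, differed by -0.15 ± 0.27 with a 95% interval of -0.78 to 0.48, and its other 2 probe sets by -0.17 and -0.09. The dynamitin gene dnc-2 differed by -0.07 ± 0.37. dnc-3 read 5.6, 5.6 and 5.97 in PVD and OLL and 5.52, 4.74 and 6.05 in the whole animal, and dnc-6 read 5.10, 5.46 and 5.40 against 5.41, 5.50 and 6.17. Both had a wider spread within the reference than between the group means. The intervals of the dynactin genes reached from -1.06 to 1.45 (both for dnc-4), so differences of up to 2-fold in either direction were not excluded for that gene.

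**Figure D4:**
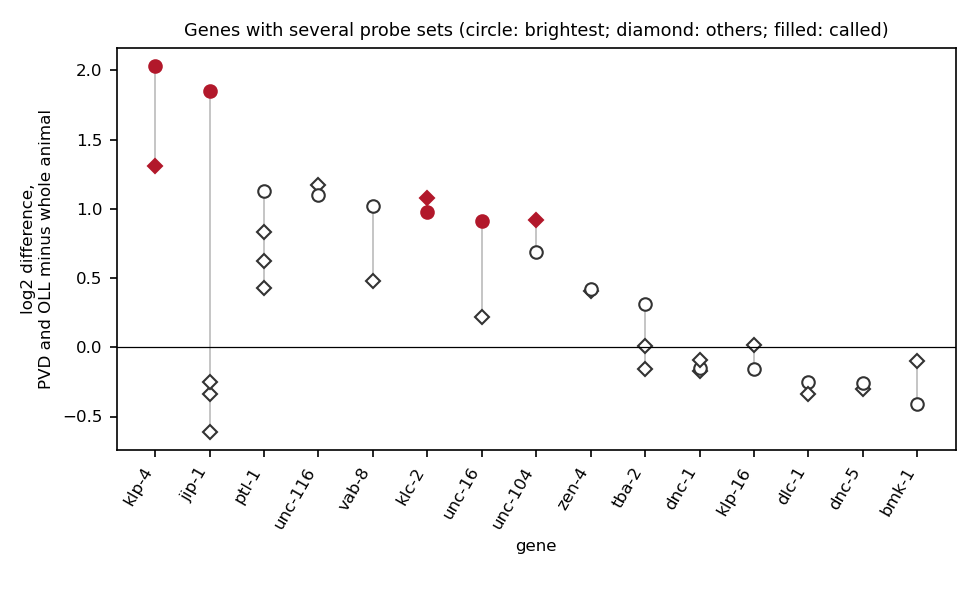
Log2 difference (y axis) of every probe set of the 15 genes with several (x axis), with a circle for the probe set of highest mean signal, diamonds for the others and red fill for called ones. klp-4 and klc-2 have 2 red symbols each, while jip-1 has 1 at 1.85 and 3 below 0.

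Of the 15 genes with several probe sets, 36 probe sets in all, 12 had probe sets of 1 sign and 3 (jip-1, klp-16 and tba-2) had both signs. klp-4 and klc-2 were the genes called with every probe set. For unc-16 and jip-1 the call came from the brightest probe set alone, and for unc-104 from the dimmer one alone. klp-3 and ebp-2 had a single probe set.

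Genes outside this set that act on the same microtubules were examined as a list of 68, of which 62 were measured. Of these, 11 were higher and 2 lower (17.7% and 3.23%, beside 8.10% and 4.66% of all genes), with a median log2 difference of 0.40. The 11 calls fell to 3 without PVD and OLL replicate 2, to 4 without PVD and OLL replicate 1 or whole animal replicate 2 and to 6 without whole animal replicate 1, and were 4 after quantile normalization. The share of all genes called higher fell too. It was 2.16% and 3.19% without PVD and OLL replicates 2 and 1. Without whole animal replicates 2 and 1 it was 4.2% and 4.69%, and after quantile normalization 4.42%. By group, 4 of 9 genes of neurite organisation and transport regulation were higher and 0 lower: sad-1 (1.88 ± 0.45), a presynaptic kinase, unc-14 (1.70 ± 0.27), a RUN domain partner of UNC-51 and kinesin-1, unc-69 (1.56 ± 0.33) and unc-76 (1.02 ± 0.27), a FEZ-class kinesin adaptor. The ankyrin gene unc-44 differed by 1.36 ± 0.38 and was not called (limma adjusted p = 0.0553), and the CRMP gene unc-33 differed by -0.30 ± 0.18. Of 9 tubulin modifying enzymes, 2 were higher and 0 lower: mec-17, an acetyltransferase, at 2.36 ± 0.35, and ttll-4, a polyglutamylase, at 1.47 ± 0.40.

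Of 14 genes of microtubule severing, growth and bundling, 2 were higher and 1 lower (14.3% and 7.14%, beside 8.10% and 4.66% of all genes). cls-3, of the CLASP family, was higher by 2.16 ± 0.34, with only 1 whole animal array above background. maph-1.1, of the MAP1 family, was higher by 1.5 ± 0.20, whereas mei-2, a subunit of the meiotic katanin, was lower by -1.87 ± 0.38. Among 12 dynein light chains and regulators, nud-2, a NudE-class regulator of dynein, was the 1 called, higher by 1.01 ± 0.26, and lis-1 and bicd-1 differed by 0.77 ± 0.23 and 1.15 ± 0.32 (limma adjusted p = 0.0610 and 0.0533). Calls were kept in all 6 runs that each dropped 1 array for mec-17, cls-3 and maph-1.1. They were lost in 1 run for unc-14, in 3 for unc-69 and mei-2, in 4 for sad-1, nud-2 and mec-12 and in 5 for unc-76, ttll-4, klp-20 and xbx-1. The mean of all probe sets of unc-14 differed by 1.01 and was not called (limma adjusted p = 0.0650). All genes called higher in this list except sad-1 were read on probe sets ending in _s_at. Without such probe sets, nud-2 and unc-76 were still called.

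The tubulin genes of touch receptor neurons were not uniform in their test. The alpha-tubulin gene mec-12 was higher by 1.86 ± 0.44 (limma adjusted p = 0.0328), and the beta-tubulin gene mec-7 differed by 1.71 ± 0.66 (limma adjusted p = 0.122). In both, whole animal replicate 3 was the low array. mec-12 read 4.1, 4.22 and 2.68 in the whole animal, with the last below background. Without whole animal replicate 3 its difference fell to 1.37 and was still called (limma adjusted p = 0.0298). mec-7 read 6.91, 6.79 and 4.23 in the whole animal, and without replicate 3 of that group its difference was 0.84 and called (limma adjusted p = 0.0338). The gamma-tubulin gene tbg-1 differed by -0.18 ± 0.29. Among 7 ciliary motor genes, klp-20 was higher by 0.78 ± 0.18 (limma adjusted p = 0.0312) and xbx-1 was lower by -1.13 ± 0.24 on the deposited scale, whereas centring on the spiked bioB and bioC transcripts gave 0.11 for xbx-1 (limma adjusted p = 0.843). Only 1 PVD and OLL array of xbx-1 was above background. klp-11 differed by 0.69 ± 0.25 (limma adjusted p = 0.108) and osm-3 by 0.24 ± 0.42.

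**Figure D5:**
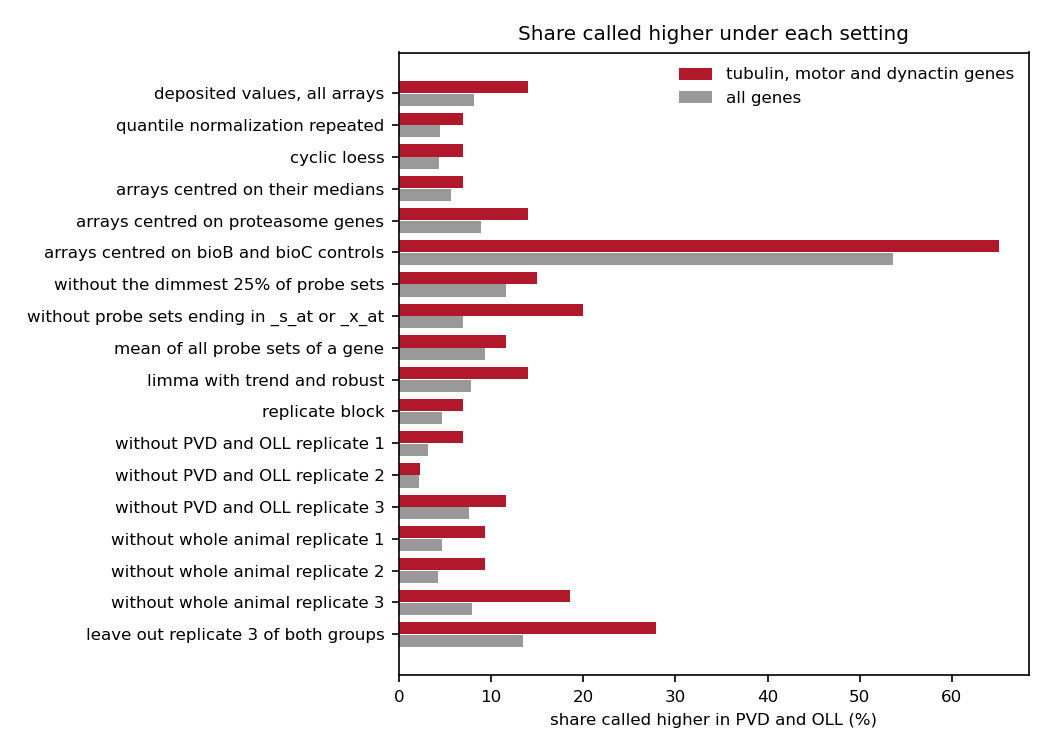
Share of genes called higher in PVD and OLL (x axis, percent) under each setting (y axis), for the 43 tubulin, motor and dynactin genes or those left after a filter (red) and for all genes on the array (grey), each 1 probe set per gene or their mean. With the deposited values the shares are 14% and 8.10%, and both shrink to 2.33% and 2.16% without PVD and OLL replicate 2.

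The share of the 43 genes called higher was set against that of all genes under each setting. It was 6.98% beside 4.42% with quantile normalization, 6.98% beside 5.61% with arrays centred on their medians, and 27.9% beside 13.5% when both arrays numbered 3 were dropped. 0 of the 43 genes were called lower under any of the 17 other settings. The directions of klp-4, klp-3, ebp-2, klc-2, unc-16 and jip-1 were the same under all of them, and klp-4 was called under each setting that kept its probe set.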

How the data were processed

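RNA was measured on 6 one-colour Affymetrix C. elegans arrays. The authors deposited a log2 value for each probe set on every array, made with RMA per the submitters' processing notes. For its version and the genome build, nothing was given in the sources used here, and the log base is read from the range of the values (1.21 to 13.9). RMA usually includes quantile normalization, but the deposited arrays did not share a common distribution. Their median log2 signal was 3.86, 3.89 and 3.72 for PVD and OLL replicates 1, 2 and 3. For whole animal replicates 1, 2 and 3 it was 3.61, 3.59 and 3.67. Offsets between arrays therefore remain in the differences given here. Whether they hold a change in total RNA was not tested. The array annotation, updated through RefSeq (WBcel235) for names only, gave 1 gene to 20766 of the 22548 probe sets tested, several to 887 and none to 895, and 77 control probe sets were left out. Differences were fitted with limma 3.58.1 in R 4.3.3 (lmFit, eBayes) over all tested probe sets, with Benjamini-Hochberg adjustment, two-sided. The code was tested on simulated data. Background on an array is the 95th percentile over 32 bacterial and yeast controls without a target. A fold against a group below it on all arrays is "at least", computed against that level. The number of arrays limits the precision. Genes and lists were chosen with earlier results of these data known. All called genes and the extremes of each role are given by array. Alternatives were other scalings, filters, probe set rules, variance models and left-out arrays.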

Additional observations from a re-analysis of the deposited data

Results flagged for a closer look

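A probe set outside the 43 genes carried a called signal above the whole animal level. It is listed for klp-12, a kinesin-4 gene, under 2 gene IDs, of which 1 is in the RefSeq gene table, and was therefore not counted. It read 4.78, 5.40 and 5.77 in PVD and OLL and 4.01, 3.90 and 3.26 in the whole animal. The groups did not overlap, and the difference was 1.59 ± 0.32 (log2, SE, n = 3 arrays per group, limma adjusted p = 0.0200). The probe sets shared by ebp-1 and ebp-3 and by klp-10 and klp-18 differed by 0.51 ± 0.23 and -0.15 ± 0.60 and were not called.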

How the results depend on the processing

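The count of 6 genes called higher was 3 after quantile normalization, cyclic loess or centring on array medians, and ebp-2, klc-2 and unc-16 were the calls lost each time. It was 28 when arrays were centred on the spiked bioB and bioC transcripts, which moved the median of all probe sets by 1.24 (median centring moved it by -0.20), and 12 when both arrays numbered 3 were dropped. With single arrays left out it ran from 1 (without PVD and OLL replicate 2) to 8 (without whole animal replicate 3). The proteasome scaling, the filters on dim and on _s_at or _x_at probe sets, the mean of probe sets and the trend with robust fit gave 5 or 6. The genes behind these counts were not always the same. The mean of probe sets lost jip-1 and unc-16 and gained unc-104, and the trend with robust fit lost unc-16 and gained unc-116. The count of genes called lower was 0 throughout. The median log2 difference of 0.32 was 0.18 after quantile normalization, 0.13 after cyclic loess, 0.12 with median centring and 1.56 on the bioB and bioC scale. It ran from 0.31 to 0.47 with single arrays left out. dnc-2, at -0.07, was called higher at 1.17 on the bioB and bioC scale, where all 43 differences were above 0, so directions are relative to the deposited scale. Deviations from the group means correlated at -0.05, -0.07 and -0.10 between same-numbered arrays 1, 2 and 3. Between differently numbered arrays they correlated at -0.06 to 0.08. With 3 arrays per group such deviations are not independent, so this cannot decide whether the numbers pair the arrays. The replicate block gave 3 calls higher. The cause of each lost call was not tested. Dim signal limits, among others, klp-6, klp-17, tba-5, tba-6, tba-9 and tbb-4, and the whole animal readings of klp-3 and ptl-1. Among all genes, 4.42% were called higher and 4.76% lower after quantile normalization, 5.61% and 9.38% with median centring and 53.6% and 0.321% on the bioB and bioC scale.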
